A study of Drosophila melanogaster with 34 samples.

Results

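The segment polarity genes wg, en, inv, hh and ptc were examined as 4 windows of the Drosophila melanogaster genome, and every deposited peak that overlapped a window was a member. The windows lay at 2L 7290000 to 7340000 for wg, 2R 7350000 to 7470000 for the neighbouring pair inv and en, 3R 18940000 to 18990000 for hh and 2R 4520000 to 4570000 for ptc, all on release 5 of the BDGP genome. They held 163 of the 48602 regions in the series. Of these, 25 overlapped the wg window, 70 the inv and en window, 36 the hh window and 32 the ptc window. The windows were fixed by position and not by any measured value. No gene annotation of release 5 was used here, so a peak is placed in a window and not on an exon, intron or promoter.

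Segment polarity genes set the pattern within each segment of the embryo. En, a homeodomain transcription factor, turns on hh, and Hh protein is secreted to neighbouring cells, where it binds the receptor Ptc and so relieves the inhibition that Ptc exerts on Smoothened. These cells express wg, whose secreted Wnt protein in turn maintains en, and ptc itself is a target of Hh signalling. The adjacent paralogues inv and en encode related homeodomain proteins and are known targets of Polycomb repression.

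Chromatin immunoprecipitation followed by sequencing was used to map 8 proteins, with 18 lists of bound regions and 16 input samples without a list. The deacetylases HDAC1, HDAC3, HDAC4a, HDAC6 and HDAC11 had 2 lists each, made from 0 to 12 h embryos. They are numbered 1 and 2 here by ascending title number (492 to 501), whose meaning the labels do not give. The insulator protein CTCF had 2 lists from S2 cells, a cultured line of embryonic origin, numbered 200 and 500. Caudal, a homeodomain factor of the posterior embryo, had 1 list at each of 4 stages. EcR, the ecdysone receptor, had 2 lists from animals labelled WPP, an earlier one (10 to 11 h) and a later one (30 to 33 h). Caudal at 0 to 4 h was precipitated with an antibody to Caudal. The lists at 4 to 8 h, in L3 larvae and in adult females of 21 days were made with goat anti GFP from cad-GFP flies, and the EcR lists with the same antibody from EcR-GFP flies. The GFP samples came from y w, VK33 flies, while the HDAC samples, Caudal at 0 to 4 h and the inputs of all animal samples came from y; bw cn sp flies. No animal received a treatment, and what drives the tagged proteins is not given in the sources used here. Whole animals were used, so a peak cannot be assigned to a tissue or to the cells of a stripe.

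Each list pooled 1 to 3 libraries and was a single observation, and read depth behind a peak is unknown. On the chromosome arms (X, 4, 3R, 3L, 2R and 2L) the lists held 478 to 5587 regions and covered 0.113% to 15.8% of bases. All 10 HDAC lists share 1 input. HDAC4a list 2 and HDAC6 list 1 matched each other more closely than their own partners: within the 4 windows their shared bases made up 79.8% of their union, against 7.38% for the HDAC4a lists and 23.9% for the HDAC6 lists. The same values over the arms were 53.0%, 11.4% and 23.6%. HDAC1 list 1 and HDAC6 list 2 also matched across labels over the arms, at 53.4%, against 47.6% for the HDAC1 lists. Within the windows their value was 32.1%, above that of the HDAC6 lists and below the 44.7% of the HDAC1 lists. Covered shares are therefore given for each list. With 2 lists against 2, an exact permutation test over lists cannot go below p = 0.33, so no difference between targets or stages was tested, and comparisons with the genome are descriptions. These set a window beside all end-to-end tiles of the same length on the arms, 2390 tiles of 50 kb and 992 tiles of 120 kb.

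The presence of a peak did not set these windows apart. A peak was found in 11 of the 18 lists at wg, in 13 at hh and in 14 at ptc, where the median 50 kb tile had a peak in 11 lists. At least 11 lists had a peak in 52.0% of 50 kb tiles, at least 13 in 34.4% and at least 14 in 23.1%. In the inv and en window 14 lists had a peak, which was the median of 120 kb tiles, of which 63.2% reached that number. The length of sequence under the peaks differed more between windows, as the plot of covered share shows.

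**Figure D1:**
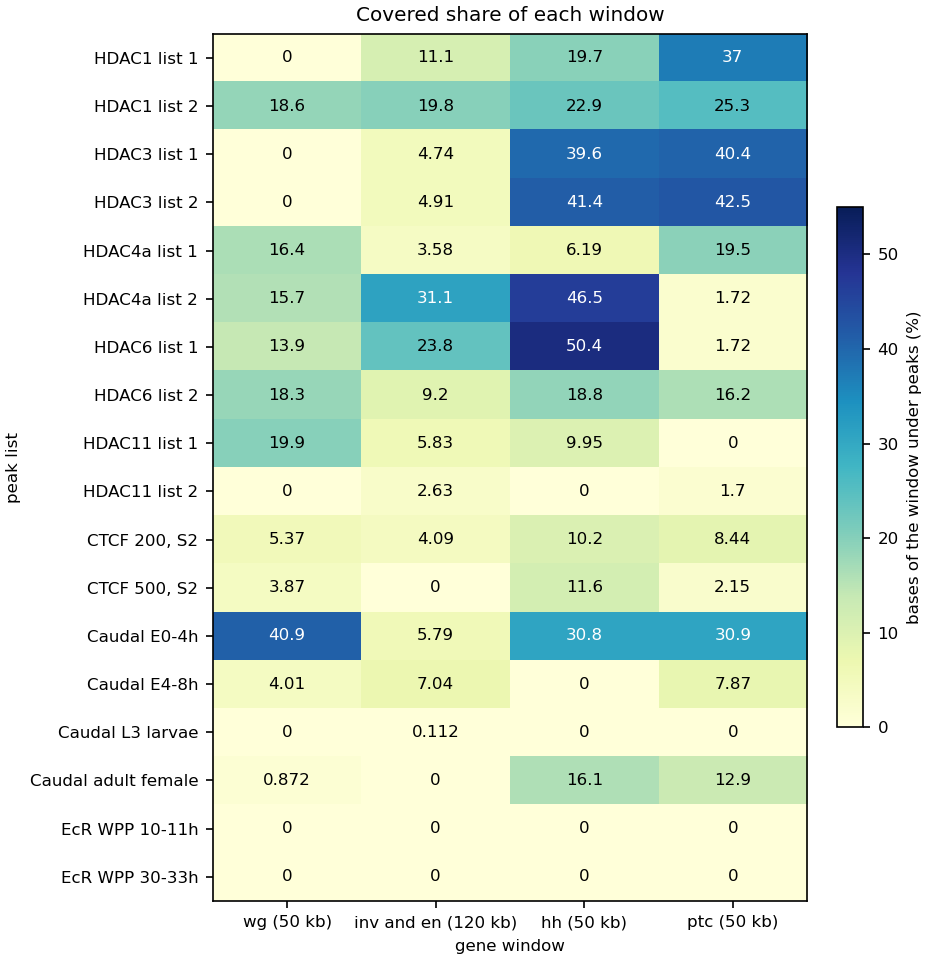
Percent of the bases of each gene window (columns) that lay under peaks of each list (rows); the number in a cell is that percent. Caudal at 0 to 4 h covered 40.9% of the wg window, HDAC6 list 1 covered 50.4% of the hh window, and both EcR lists covered none of any window.

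Early Caudal peaks covered more of the wg, hh and ptc windows than of nearly all tiles. The 0 to 4 h list had 4 peaks at wg, 2 at hh, 4 at ptc and 5 at inv and en, where 46.9% of 50 kb tiles and 72.6% of 120 kb tiles had at least 1. These covered 40.9% of the wg window, 30.8% of the hh window and 30.9% of the ptc window, against 4.29% of the arms and a tile median of 0. Only 16 tiles (0.669%) were covered as much as wg, 36 (1.51%) as much as hh and 35 (1.46%) as much as ptc. The inv and en window was nearer to the rest of the genome, with 5.79% covered against a median of 2.25% for 120 kb tiles, and 26.3% of these tiles were covered as much. The wg, hh and ptc windows, on different arms, thus had broad early Caudal coverage, while the longest window had short, scattered peaks.

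Some early Caudal peaks at wg, hh and ptc were among the widest of the list. At wg the peak at 2L 7298359 to 7308096 was 9738 bp wide, rank 13 of 2159 by width, and the next one at 2L 7308838 to 7314514 had rank 97. The others at wg had ranks 226 and 871. At hh the peak at 3R 18951203 to 18960528 was 9326 bp wide and had rank 14, and the second at 3R 18963484 to 18969554 had rank 80. The widest at ptc, at 2R 4540855 to 4548193, had rank 39. In contrast, none of the 5 peaks at inv and en exceeded 1643 bp, and the widest, at 2R 7453646 to 7455288, had rank 1287.

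Caudal at 4 to 8 h showed a different layout. It had 1 peak at wg, 4 at inv and en, 1 at ptc and none at hh, although 77.5% of 50 kb tiles and 92.5% of 120 kb tiles had a peak of this list. The covered shares of 4.01%, 7.04% and 7.87% lay near the tile medians of 6.39% for 50 kb and 7.67% for 120 kb. The peak at wg, 2L 7313476 to 7315482, overlapped the end of an early peak by 1039 bp. The peak at ptc, 2R 4548237 to 4552169, began 43 bases beyond the end of the widest early peak without overlapping it. None of the 4 peaks at inv and en overlapped an early one, and the widest of them lay at 2R 7411927 to 7416299 with rank 251 of 5587. In these windows, then, 1 of 6 peaks at 4 to 8 h overlapped an early peak, and over the arms few did so either, 315 of 5587 (5.64%). The antibody and the strain also differed between the lists, and their part in this was not tested.

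Adult females had Caudal peaks at hh and ptc and hardly any at the other genes. This list had 1 peak at wg, 4 at hh, 5 at ptc and none at inv and en, where 58.8% of 50 kb tiles and 82.8% of 120 kb tiles had one. The covered share was 16.1% at hh and 12.9% at ptc, against 0.872% at wg and a tile median of 1.53%. As much was covered in 2.51% of tiles for hh and in 5.06% for ptc. Both of the adult peaks at 3R 18951256 to 18954079 and 3R 18964014 to 18966592 in the hh window lay wholly within early embryonic peaks, as 12.2% of all adult peaks on the arms did. The other 2 adult peaks at hh lay 12173 and 20162 bases from the nearest early one. At ptc 2 of the 5 adult peaks overlapped early ones, by 107 and 673 bp, and over the arms 20.3% overlapped. Over the 4 windows the shared bases made up 9.22% of the union of both lists, and over the arms 9.56%. The widest adult peak at ptc, at 2R 4557634 to 4559993, lay 9440 bases from the nearest early peak. The wg peak, at 2L 7333574 to 7334009, was 436 bp wide and had rank 3374 of 3407.

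Larval and pupal lists were almost empty here. The L3 Caudal list had 1 region in all, at 2R 7416478 to 7416612 in the inv and en window, with an authors' score of 7.08 and rank 581 of 584 by score. This list had a region in 21.5% of 50 kb tiles and 43.9% of 120 kb tiles. Its file header carries a track name with EcR, against the sample's label, which was followed here. EcR had no region in any window at either time. At 10 to 11 h EcR had a region in 13.8% of 50 kb tiles and 27.1% of 120 kb tiles, and at 30 to 33 h in 13.3% and 26.3%, so most tiles also lacked one. These 3 lists were cut from density tracks and held few, narrow regions, and a lack of a region is not a lack of binding.

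**Figure D2:**
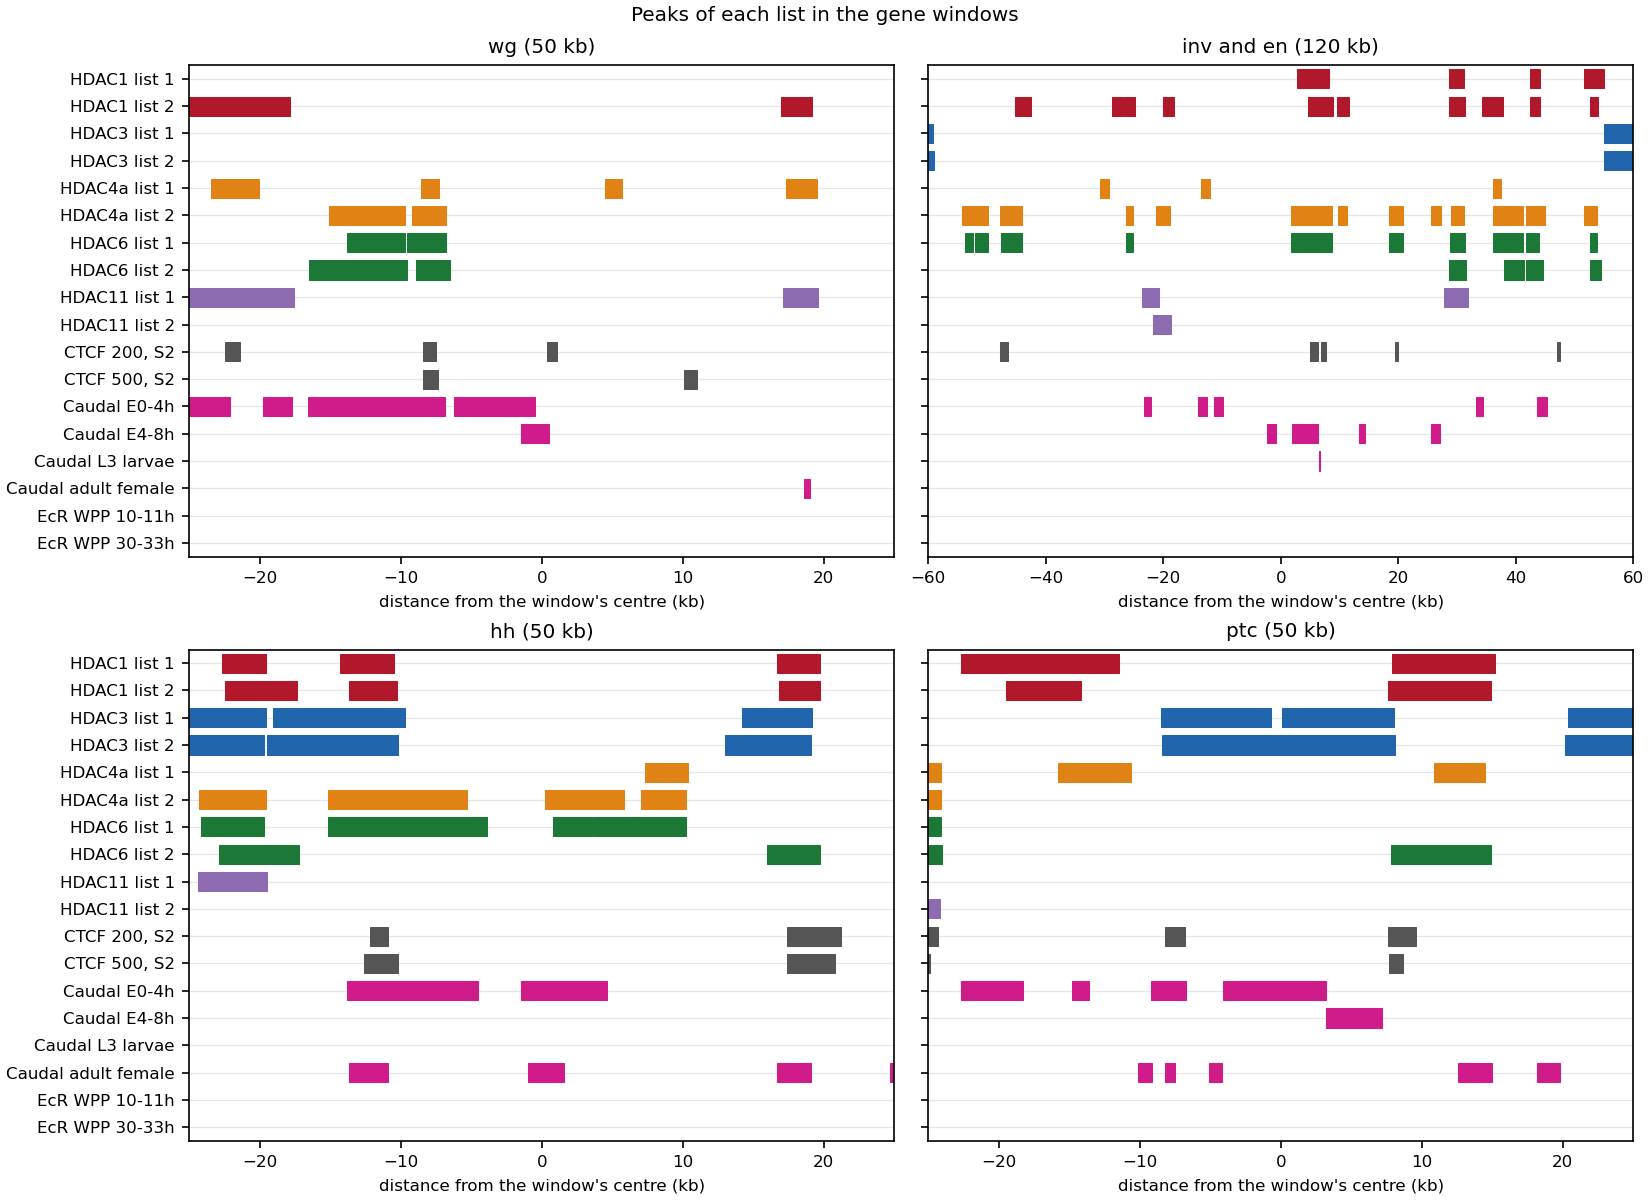
Peaks of each list (rows, coloured by target) along the 4 windows, with the distance from the centre of the window in kb on the horizontal axis; peaks that run past a window are clipped at its edge. HDAC3 peaks stand at both ends of the inv and en window and at hh and ptc, and HDAC3 has no peak at wg.

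HDAC3, an enzyme known as the catalytic part of a nuclear corepressor complex, was broad at hh and ptc and absent from the inside of the wg and inv and en windows. List 1 had 3 peaks at hh and 3 at ptc, and list 2 had 3 and 2, where 57.2% and 58.1% of 50 kb tiles had a peak of the respective list. The covered share was 39.6% and 41.4% at hh and 40.4% and 42.5% at ptc, against tile medians of 6.92% and 8.42%. Shares this high were found in 11.9% and 12.1% of tiles for hh and in 11.5% and 11.3% for ptc, so they were uncommon but not rare. At hh the widest peaks lay at 3R 18945870 to 18955307 and 3R 18945507 to 18954825 in lists 1 and 2. At ptc a single peak of list 2, at 2R 4536638 to 4553090, covered the stretch that list 1 split into 2 peaks at 2R 4536479 to 4544323 and 2R 4545116 to 4552974.

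The wg window had no HDAC3 peak in either list. The gap between peaks that held it ran from 2L 7223383 to 7382827 in the combined lists, 159 kb in all, and 163 of the 2567 gaps between combined HDAC3 peaks (6.35%) were as long. A window falls into a long gap more readily than into a short one, so this share does not measure how rare such a window is. Only 57.2% and 58.1% of 50 kb tiles had a peak of lists 1 and 2, so lacking one was common. At inv and en each list had 2 peaks, 1 across each end of the window, where 79.4% and 80.5% of 120 kb tiles had a peak. In list 1 these lay at 2R 7339102 to 7350825 and 2R 7465136 to 7482200, and in list 2 at 2R 7339106 to 7351010 and 2R 7465123 to 7482443, so the inner ends differed by 185 and 13 bp between lists. The stretch between them, 2R 7351011 to 7465122, was 114 kb long and free of HDAC3 in both lists. Of the 2567 gaps 257 were as long, a share with the same limit. On release 6 the protein-coding neighbours of this gene pair are E(Pc) and tou; the outer peaks were not placed on genes here. When the window was taken 10 kb shorter at each end its mean covered share fell from 4.82% to 0, and 10 kb longer it was 18.4%. The shorter window holds none of these peaks, and the longer one holds more of their length. At hh the shorter window gave 21.6% against a mean of 40.5%.

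HDAC1, the deacetylase also known as Rpd3, had peaks at hh, ptc and inv and en in both lists. At hh each list had 3 peaks, and those of list 1 all overlapped list 2, as 85.4% of list 1 peaks on the arms did. They covered 19.7% and 22.9% of the window. At ptc each had 2, which covered 37.0% and 25.3%. Peaks of lists 1 and 2 occurred in 62.8% and 70.3% of 50 kb tiles, and the tile medians were 5.14% and 8.09%. The share at ptc was reached by 1.88% of tiles in list 1 and by 14.5% in list 2. The widest peak of list 1 at ptc, 2R 4522283 to 4533528, had rank 24 of 2998, while list 2 had a peak of 5332 bp inside it. At inv and en the lists had 4 and 10 peaks, covering 11.1% and 19.8%, and peaks occurred in 84.9% and 89.1% of 120 kb tiles. All 4 peaks of list 1 there overlapped list 2. At wg the lists disagreed: list 1 had no peak and list 2 had 2, at 2L 7289233 to 7297062 and 2L 7331975 to 7334223, with 18.6% covered.

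HDAC4a and HDAC6, a class IIa enzyme and a largely cytoplasmic tubulin deacetylase, were dense at hh and at inv and en in one list of each. HDAC4a list 2 covered 46.5% of the hh window and HDAC6 list 1 covered 50.4%, shares reached by 15 tiles (0.628%) and by 4 tiles (0.167%). Each had 5 peaks there, and peaks of these lists occurred in 70.0% and 60.3% of 50 kb tiles. Both had their widest peak of the window start at the same base, at 3R 18949756 to 18959681 with rank 34 of 4003 for HDAC4a and at 3R 18949756 to 18961109 with rank 21 of 2956 for HDAC6. Their partners covered far less. HDAC4a list 1 had 1 peak at 3R 18972271 to 18975367 and 6.19% covered, and HDAC6 list 2 had 2 peaks and 18.8%, while 59.9% and 66.8% of 50 kb tiles had a peak of these lists. The high HDAC4a and HDAC6 values at hh therefore came from HDAC4a list 2 and HDAC6 list 1, which match each other across labels. The cause of that match was not tested.

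In the inv and en window the same contrast between lists appeared. HDAC4a list 2 had 15 peaks and HDAC6 list 1 had 12, where 88.6% and 82.9% of 120 kb tiles had at least 1 and the means were 4.08 and 3.01 peaks. As many peaks were found in 1.11% and 1.21% of these tiles. The covered shares were 31.1% and 23.8%, reached by 1.92% and 2.92% of tiles. All 12 HDAC6 peaks overlapped HDAC4a list 2, as did 83.6% of the HDAC6 list 1 peaks on the arms. HDAC4a list 1 had 3 peaks and 3.58% covered, and HDAC6 list 2 had 4 peaks and 9.20%, near their tile medians of 3.74% and 9.13%; their peaks occurred in 85.1% and 86.9% of tiles. The 4 peaks of HDAC6 list 2 all overlapped list 1, against 40.5% on the arms, so the HDAC6 lists shared 4 places between 2R 7438941 and 7463876. Overlap rises with coverage, and list 1 covered 23.8% of this window against 6.78% of the arms. At wg 2 of 2 peaks of list 2 overlapped list 1, and at hh and at ptc 1 of 2 did.

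At wg the HDAC4a and HDAC6 lists covered similar shares, though not the same bases. The covered share was 16.4% and 15.7% for HDAC4a and 13.9% and 18.3% for HDAC6, with 4 peaks in HDAC4a list 1 and 2 in each of the others. Between 6.49% and 22.8% of tiles were covered as much. The shared bases made up 9.12% of the union of the HDAC4a lists and 62.0% of that of the HDAC6 lists. The peaks of HDAC4a list 2 and of both HDAC6 lists lay at 98.1%, 98.4% and 95.9% of their bases under early Caudal peaks, which themselves covered 40.9% of the window, while for HDAC4a list 1 this was 33.3%. At hh 82.9% of the bases under early Caudal peaks also lay under HDAC4a list 2 and 84.7% under HDAC6 list 1, lists that covered 46.5% and 50.4% of that window. HDAC4a list 1 and HDAC6 list 2 shared no base with early Caudal at hh. The ptc window differed: HDAC4a list 2 and HDAC6 list 1 reached it only with 1 identical interval across its edge, 2R 4512712 to 4520860. None of the early Caudal bases at ptc lay under these lists. HDAC6 list 2 and HDAC4a list 1 had 2 and 3 peaks at ptc and covered 16.2% and 19.5%. As much was covered in 26.8% of tiles for HDAC6 list 2 and in 3.6% for HDAC4a list 1.

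HDAC11, the only class IV deacetylase, had few peaks here, and its lists seldom overlapped. Its lists were short, with 982 and 1506 regions on the arms. List 1 had 2 peaks at wg, 2 at inv and en, 1 at hh and none at ptc. List 2 had none at wg and hh and 1 at each of the other windows. Tiles with a peak made up 34.2% and 44.3% at 50 kb and 59.0% and 70.2% at 120 kb, so having a peak or none is common for these lists. The mean number of peaks per tile was 0.449 and 0.668 at 50 kb and 1.02 and 1.55 at 120 kb. List 1 was thus above its tile mean at wg, inv and en and hh. The coverage of list 1 at wg, 19.9%, was 5.52 times its share of the arms and was reached by 4.27% of tiles, while list 2 covered none of it. The widest peaks of list 1 lay at 2L 7289419 to 7297436 in the wg window, a stretch nearly the same as that of the widest HDAC1 list 2 peak, and at 3R 18940557 to 18945532 in the hh window. The lists overlapped at a single place of 1040 bp, 2R 7388154 to 7389193, within the inv and en window.

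CTCF in S2 cells was present at wg, hh and ptc in both lists. List 200 had 3 peaks at wg, 5 at inv and en, 2 at hh and 3 at ptc, and list 500 had 2, none, 2 and 2. Peaks of these lists occurred in 79.0% and 62.4% of 50 kb tiles and in 96.3% and 88.5% of 120 kb tiles. Both peaks of list 500 at hh overlapped list 200, as did 91.8% of list 500 peaks on the arms. Those at 3R 18982385 to 18986165 and 3R 18982441 to 18985821 were wide for CTCF, with rank 47 of 4879 and rank 46 of 2615. The covered share at hh was 10.2% and 11.6%, reached by 14.6% and 3.43% of tiles. At wg the lists coincided at 2L 7306581 to 7307475, and at ptc at 2R 4552741 to 4553681 and at the edge of the window. The inv and en window had no place held by both lists.

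**Figure D3:**
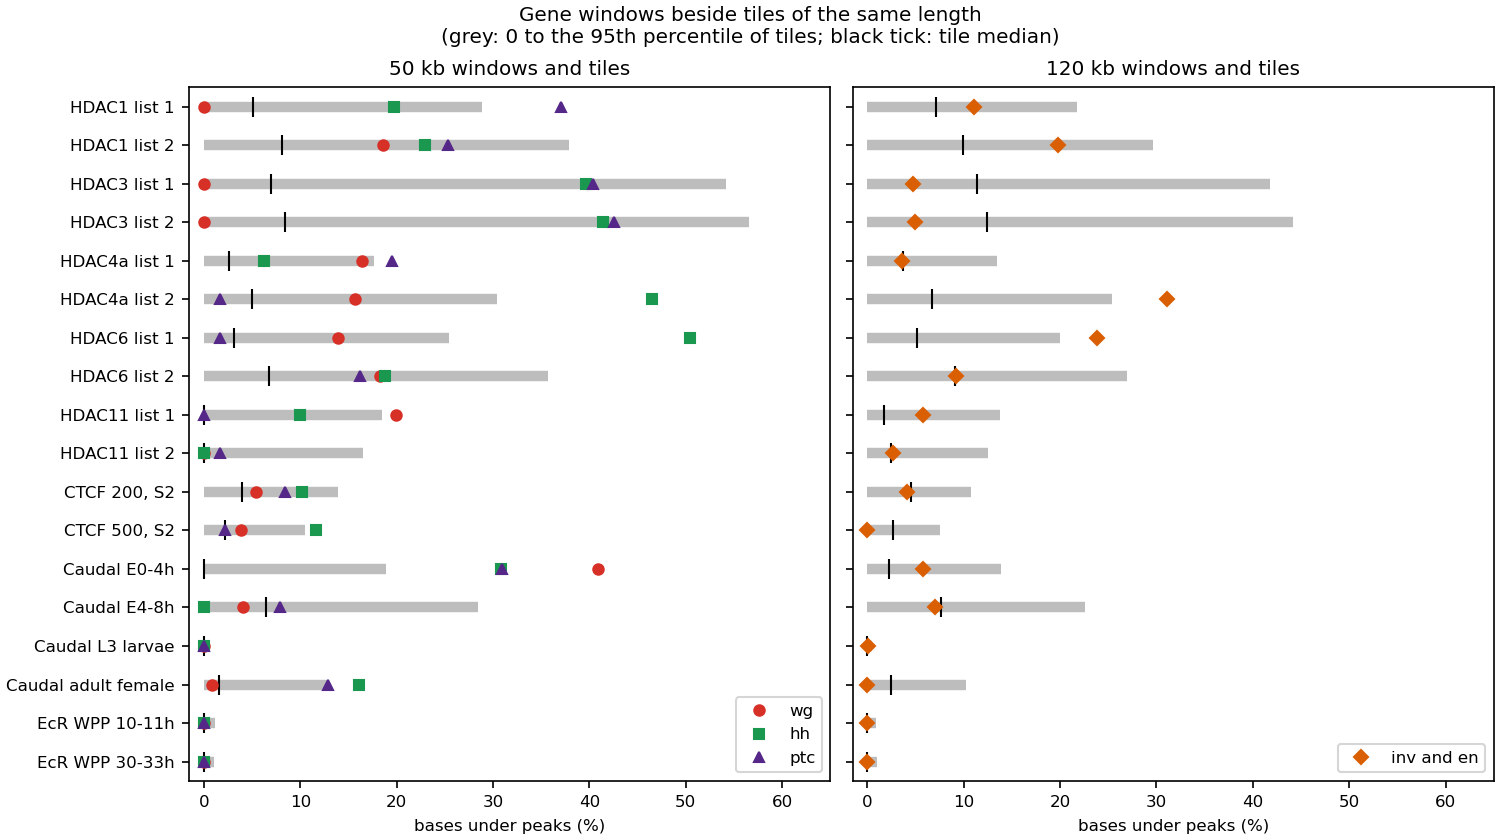
Percent of bases under peaks (horizontal axis) for each list (rows) in the 50 kb windows of wg, hh and ptc (left) and the 120 kb window of inv and en (right), beside tiles of the same length (grey bar, 0 to the 95th percentile; black tick, median); markers with equal values hide one another. Caudal at 0 to 4 h lies beyond the grey bar at wg, hh and ptc, and HDAC4a list 2 and HDAC6 list 1 do so at hh and at inv and en.

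The places covered by the most lists were examined next, and hh had the deepest. A segment of 1280 bp at 3R 18952800 to 18954079 lay under 10 lists, namely both HDAC1 lists, both HDAC3 lists, HDAC4a list 2, HDAC6 list 1, both CTCF lists, Caudal at 0 to 4 h and adult Caudal. Of the bases of the arms, 0.287% lay under as many. This share counts single bases, while the segment was picked as the deepest of its window. The deepest place of each tile was not computed, so the share does not show how unusual the window was. Embryos, cultured cells and adult females thus had peaks over the same segment, and only HDAC4a list 1, HDAC6 list 2 and HDAC11 list 1, of the lists with a peak in the window, were missing from it. A further pair of rises in the hh window, seen in the plot of lists along the windows, reached a mean of 8 lists per 1 kb bin. The one near the start of the window was made of deacetylases alone, with HDAC11 list 1 among them. The one near its end held the wide CTCF peaks, adult Caudal, both HDAC1 lists, both HDAC3 lists and HDAC6 list 2.

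The other windows had shallower maxima, and the shares of arm bases given for them have the same limit. At wg 7 lists met over 895 bp at 2L 7306581 to 7307475, namely all HDAC4a and HDAC6 lists, both CTCF lists and early Caudal, and 2.98% of arm bases were as deep. At inv and en 6 lists met at each of 3 segments, where 5.12% of arm bases were as deep. The first, 2R 7415028 to 7416295, held both HDAC1 lists, HDAC4a list 2, HDAC6 list 1, CTCF list 200 and Caudal at 4 to 8 h. The second, 2R 7439029 to 7441184, held deacetylases only, namely both HDAC1 lists, both HDAC6 lists, HDAC4a list 2 and HDAC11 list 1, and the third, 2R 7453646 to 7453953, had early Caudal in place of HDAC11. At ptc 7 lists met over 59 bp at 2R 4552916 to 4552974, where both HDAC1, both HDAC3 and both CTCF lists met HDAC6 list 2, and over 133 bp at the edge of the window. The segment at ptc lay where the HDAC3 peaks ended and the HDAC1 peaks began, so that these 2 enzymes were adjacent there with little overlap.

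**Figure D4:**
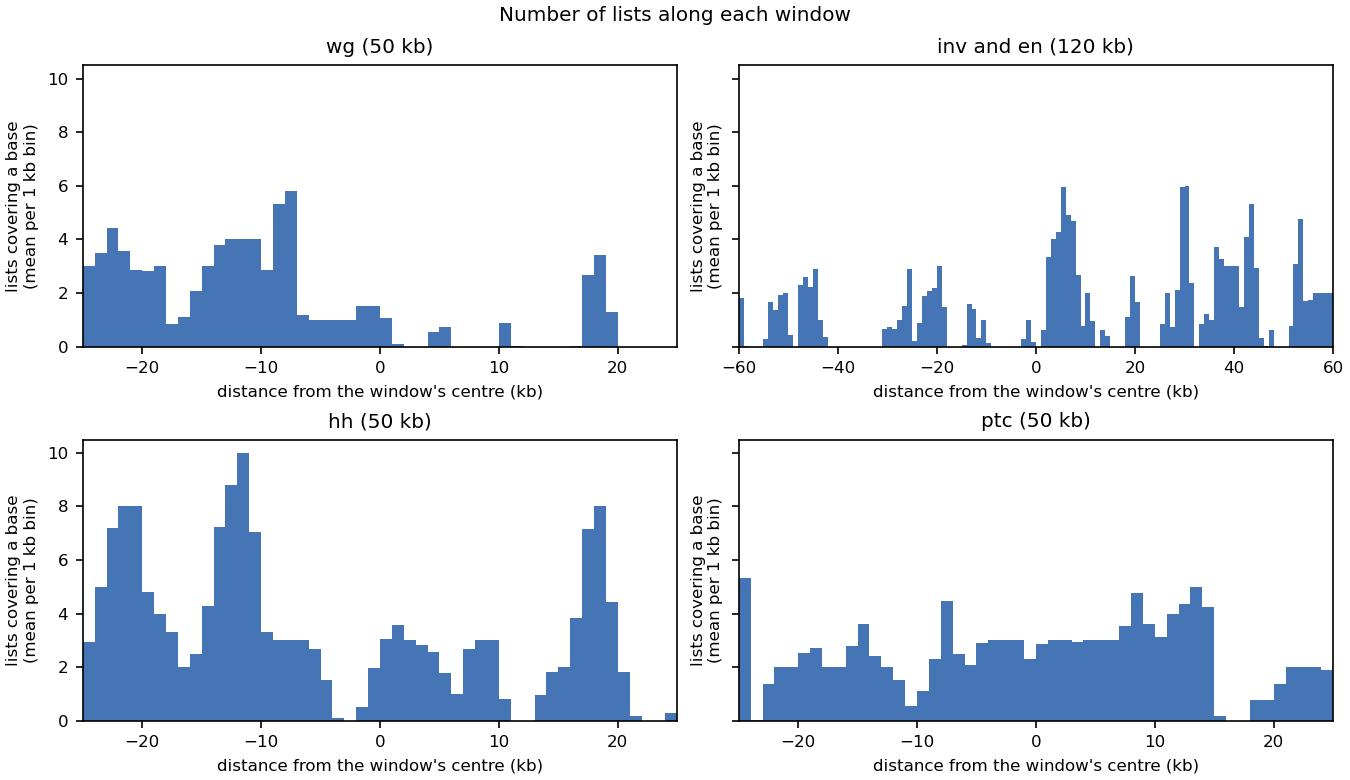
Mean number of lists that cover a base, in 1 kb bins (vertical axis), along each window, as distance from its centre in kb (horizontal axis). The hh window reaches 10 lists, the wg and inv and en windows about 6 per bin, and the longest stretch without any list, 11991 bp, lies in the inv and en window.

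Agreement between lists of 1 target varied between targets and windows. The bases shared by both lists made up 92.4% of their union for HDAC3, 44.7% for HDAC1, 35.0% for CTCF and 4.18% for HDAC11, against 83.7%, 47.6%, 43.6% and 7.07% over the arms. Within single windows the HDAC1 value was 0 at wg and 73.7% at hh, and the CTCF value 0 at inv and en and 75.7% at hh. A segment under both lists was found for 5 of the 6 targets with 2 lists at hh, at ptc and at inv and en, and for 3 at wg. At ptc those of HDAC4a and HDAC6 were the same 861 bp at the edge of the window. The inv and en window is longer than the others, and the share of tiles with such segments was not computed, so these counts are descriptions. Early Caudal and HDAC lists shared a larger part of their union here than over the arms for some lists and not for others. This share rises with coverage. Early Caudal covered 40.9% of the wg window, 30.8% of hh, 30.9% of ptc and 5.79% of inv and en, against 4.29% of the arms. The share that coverage alone would give was not computed, so a higher value does not show closer overlap at these genes. The share of the union was 13.6% and 13.5% with the HDAC3 lists, against 3.21% and 3.06% over the arms. It was 20.7% with HDAC4a list 2 and 20.2% with HDAC6 list 1, the lists that match each other, against 6.26% and 6.63%. Their partners were at or below the arms, HDAC4a list 1 at 6.37% against 8.60% and HDAC6 list 2 at 11.4% in both. The HDAC1 lists were also below, at 10.4% and 10.3% against 12.2% and 14.5%, and HDAC11 was at 8.25% and 0 against 5.94% and 1.49%. For HDAC3 the shared bases lay at ptc, where 53.9% and 58.0% of early Caudal bases were under lists 1 and 2, and at hh, where 26.7% and 23.5% were. These lists covered 40.4% and 42.5% of the whole ptc window and 39.6% and 41.4% of the hh window. At hh the early Caudal bases thus lay under HDAC3 less often than the window as a whole, and at ptc more often.

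The median width of the peaks in the windows was above that of the whole list in every list with a peak there, except HDAC1 list 2 and the L3 list. The median width of the 8 and 7 HDAC3 peaks was 7852 and 9319 bp, against 5295 and 5826 bp over all peaks of the lists. For Caudal at 0 to 4 h the median of 15 peaks was 2498 bp against 1864 bp, with a range of 1068 to 9738 bp. In HDAC1 list 2 and for the single L3 region the values were 2566 against 2763 bp and 135 against 235 bp. Wide peaks overlap a window more readily than narrow ones, so these medians are descriptions.

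Much of each window was covered by peaks of at least 1 list. Peaks of any list covered 59.2% of the wg window, 54.3% of the inv and en window, 82.8% of the hh window and 89.8% of the ptc window. The mean number of lists per base was 1.58, 1.34, 3.24 and 2.48 in the same order. Covered shares exceeded the list's share of the arms in 9 lists at wg, 6 at inv and en, 13 at hh and 9 at ptc. Neither this count nor the values before it were computed for tiles, so they do not show how unusual a window was. The longest stretch without a peak of any list was 2R 7367354 to 7379344 in the inv and en window, 11991 bp, and at wg it was 2L 7326038 to 7331974, 5937 bp. At hh and ptc no such stretch exceeded 3551 bp.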

How the data were processed

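The authors deposited 15 lists with a chromosome, start and end per peak and 3 lists (both EcR lists and L3 Caudal) with a score as well. Per the file headers these 3 were cut from density tracks at a count threshold, joining runs across gaps of up to 100 bp and keeping runs from 100 bp. Release 5 of BDGP is the build per the submitters' processing notes. No aligner or peak caller is given in the sources used here. Libraries had been pooled by the authors, per the titles.

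Coordinates are printed 1-based. A region belonged to a window when they overlapped by 1 bp or more. Covered shares, tiles (end to end on the 6 arms, without those that touch a window) and the number of lists per base were computed in Python 3.11.15 with numpy 2.4.6, and the tile functions were tested on simulated intervals. Peaks were ranked by width, or by the authors' score. The named intervals were the widest of a list, all of a list with at most 3, and the deepest segments; others (most Caudal peaks, shared places, gaps) were chosen after their values were seen. Members and lists were chosen with earlier results of these data known. Gene order came from a release 6 table. Other genes of the pathways and all sequences were not analysed here. Alternatives are given in the closing section.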

Additional observations from a re-analysis of the deposited data

How the results depend on the processing

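No paired analysis was possible because every list is 1 pooled observation and no result comes from a test. The number of lists with a peak stayed within 1.5 times the values given with the upper 50% of each list, with midpoints inside the window, and with windows 10 kb shorter or longer at each end. The number covered above their share of the arms did so with the upper 50% and the shorter windows, and the deepest overlap with the upper 50%, the one alternative run for it. The median share of tiles with a peak did so with shifted tiles and with midpoints. With windows 10 kb longer at each end, the lists covered above their share of the arms rose from 6 to 11 at inv and en and from 9 to 14 at ptc; the cause was not tested. Leaving out each HDAC or CTCF list in turn gave 10 to 11 lists with a peak at wg, 13 to 14 at inv and en, 12 to 13 at hh and 13 to 14 at ptc, and 8 to 9, 5 to 6, 12 to 13 and 8 to 9 lists above their share of the arms. Such a count can only stay the same or fall by 1, so these ranges were fixed in advance and do not measure stability. Of the 192 covered shares recomputed per target, 35 moved by more than the spread between lists, or by over 1.5 times where a target had 1 list. Leaving out 1 of 2 lists always shifts their mean by less than that spread, so such recomputations could not count as moved. At inv and en the HDAC4a mean of 17.3% became 31.1% without list 1 and 3.58% without list 2, and neither counted. Early Caudal at hh rose to 51.3% in the shorter window, and at inv and en it was 0 with the upper 50% and 10.4% in the longer window. Peak height and depth are unknown, so a wide peak cannot be called a strong one.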
